A study of Mus musculus with 3 samples.

Results

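Amino acid transporters were examined in mouse macrophages stimulated in 3 ways. They were chosen by name: every gene of the SLC1, SLC3, SLC6, SLC7, SLC36, SLC38, and SLC43 families on the array, apart from Slc7a2, which the rule left out. These were 59 of the 34821 gene names on the array, carried by 79 probes. Bone marrow-derived macrophages (BMDMs) of C57BL/6J mice, grown with M-CSF, were stimulated for 20 h with CpG alone, with IFN-γ + αIL-10R, or with all 3 agents (Triple). TLR9 senses the CpG DNA used, and αIL-10R keeps IL-10 from acting on the cells by blocking its receptor. IFN-γ + αIL-10R was the control condition of the study and is called the reference in comparisons below. The blocking antibody was present in IFN-γ + αIL-10R and in Triple and absent from CpG, and unstimulated cells were not analysed here. Each condition had 1 array, so that no difference below has a replicate check and no p-value is given. Triple differed from the reference by added CpG. CpG differed from the reference also by the absence of IFN-γ and the blocking antibody, and Triple differed from CpG by both of these together. No comparison here gave the effect of CpG without IFN-γ.

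Amino acids cross membranes mainly through carrier proteins, and each family of carriers has its own coupling. SLC7 light chains join a heavy chain of SLC3 and exchange one amino acid for another, SLC1, SLC6, and SLC38 proteins draw on sodium, and SLC36 proteins draw on protons. In activated macrophages, such carriers bring in arginine for nitric oxide synthesis, cystine for glutathione, and leucine and glutamine for growth signaling through mTORC1.

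Signals are intensities, and a signal that the scanner software did not mark as well above background is called dim here. The signal was well above background at 44.4% to 46.0% of the 59305 spots of each array, and no spot was saturated. All 3 arrays lay on 1 slide with 1 scan time, each condition at its own position. All 9 macrophage markers on the array, among them Csf1r, Cd68, and Tyrobp, were detected in each condition, with summed signals of 963960 in CpG, 943650 in IFN-γ + αIL-10R, and 884270 in Triple. Markers of other cells were detected in part, 3 of 7 T cell markers, 2 of 5 B cell markers, 5 of 8 neutrophil markers, 3 of 4 fibroblast markers, and none of 4 erythroid markers. In the order CpG, IFN-γ + αIL-10R, and Triple, the summed signals were 2630, 3006, and 2798 for the T cell list, where Cd3e, Cd4, and Lck were detected and Cd3d, Cd3g, and Cd8a were dim on every array, and 885, 278, and 184 for the B cell list. They were 3850, 9457, and 4879 for the neutrophil list and 539, 326, and 481 for the fibroblast list. The neutrophil markers differed in direction. Ly6g had 555, 7699, and 2658, S100a8 had 297, 55.7, and 517, and Elane had 2839, 1615, and 1539. Mpo was dim throughout. Of 5 dendritic cell markers, 3 (Ccr7, Zbtb46, and Xcr1) were more than 2-fold higher in Triple than on either other array. The share of all detected genes with this pattern was 3.69%. Itgax was highest in CpG (1945, against 1246 in the reference and 1438 in Triple), and Flt3 was dim throughout. The summed signal of the list was 2309 in CpG, 1540 in the reference, and 4537 in Triple. Ccr7 gave 2892 of the sum in Triple. Xcr1 had 60.7 in Triple and was dim elsewhere, and Zbtb46 was dim in CpG. The part of these markers in the transporter values was not tested, and in bulk RNA more cells of a type and more RNA per cell cannot be told apart.

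Of the 59 transporters, 57 could be measured on all arrays; Slc38a8 and Slc43a1 had only spots marked as outliers on at least 1 array and were dim elsewhere. The measured set held 31 genes (54.4%) that were detected on at least 1 array, and over all genes this share was 56.0%. Detected on every array were 25 transporters, beside 15891 of all 33597 measured gene names. On 2 arrays 3 transporters were detected (Slc6a19, Slc7a4, and Slc38a11), and on 1 array 3 (Slc7a11, Slc1a2, and Slc1a7). For these last 3 the array was Triple, with Slc1a2 and Slc1a7 near the limit of detection. The share of all genes detected in Triple only is not given. The other 26 were dim throughout. They included the neuronal carriers for dopamine, noradrenaline, serotonin, and proline (Slc6a3, Slc6a2, Slc6a4, and Slc6a7), the heavy chain Slc3a1 with its light chain Slc7a9, which serve cystine uptake in kidney, the glutamate carriers Slc1a1, Slc1a3, and Slc1a6, and Slc38a3, Slc38a4, and Slc38a5. The remaining dim genes were Slc6a5, Slc6a11, Slc6a14, Slc6a15, Slc6a17, Slc6a18, Slc7a3, Slc7a10, Slc7a12, Slc7a13, Slc7a14, Slc7a15, Slc36a2, and Slc36a3.

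**Figure D1:**
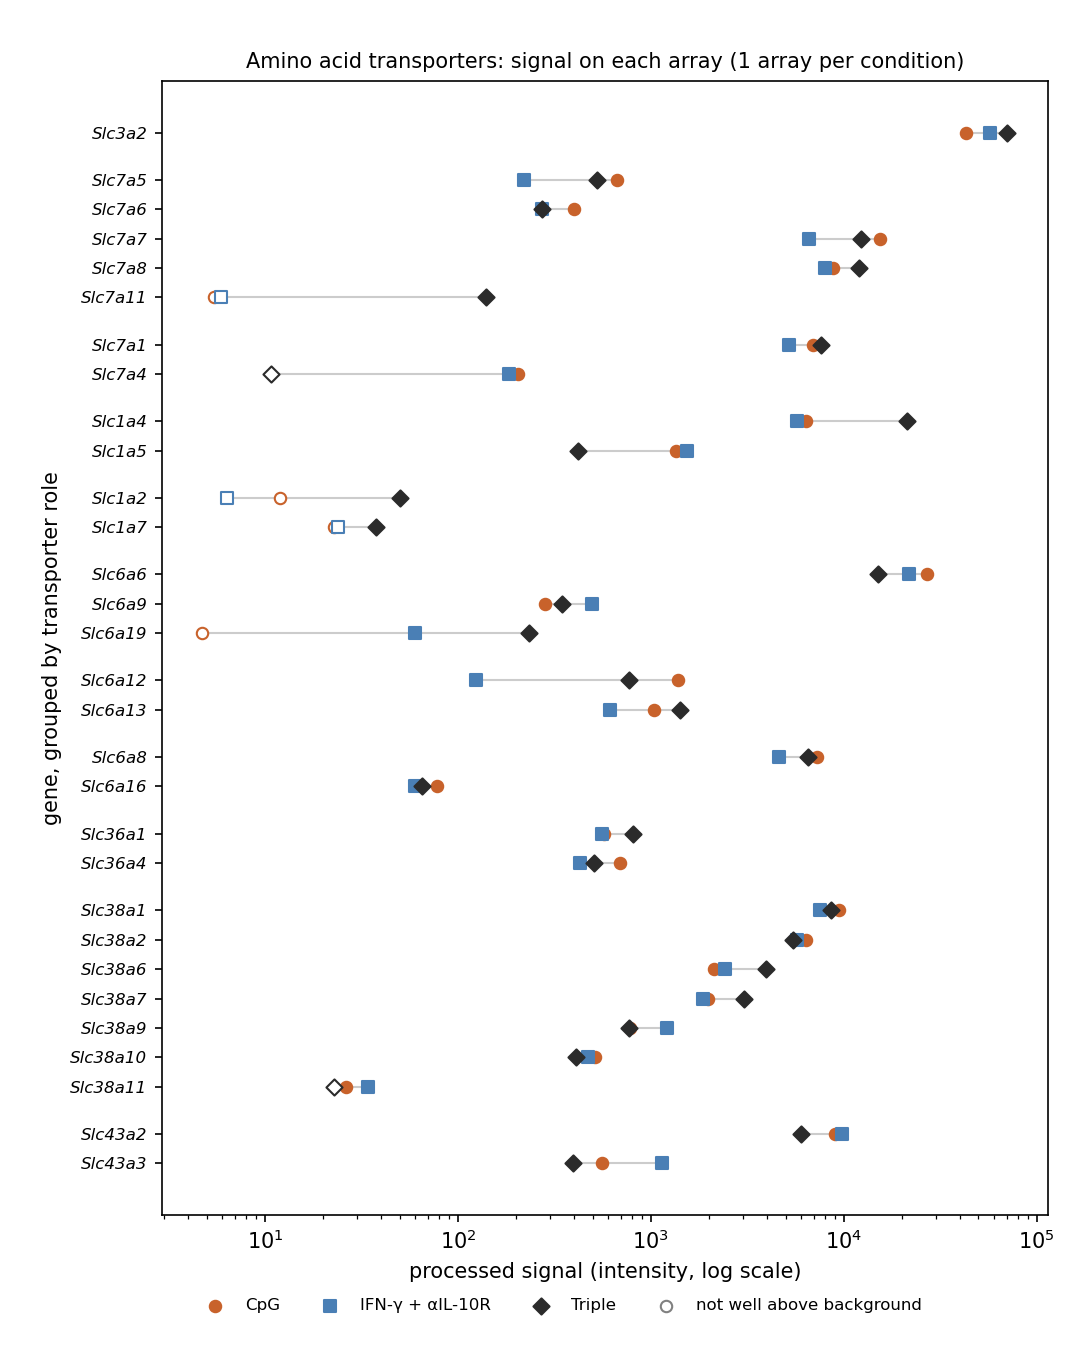
Processed signal (intensity, log axis) of 30 of the 31 detected amino acid transporters on each array, 1 symbol per condition and 1 array per condition, with open symbols for dim signals. Slc1a4 stands to the right in Triple, Slc1a5 to the left, and Slc7a11 is filled in Triple only.

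With 31 detected transporters, 6 (19.4%) exceeded the reference by more than 2-fold in Triple, beside 6.31% of the 18803 genes detected on any array. These were Slc1a4, Slc6a12, Slc6a13, Slc6a19, Slc7a5, and Slc7a11. More than 2-fold lower were 3 transporters (9.68%), Slc1a5, Slc7a4, and Slc43a3, beside 8.95% of all detected genes. The share of transporters that were lower was thus near that of all genes, and the share that were higher was above it. Slc7a11 was dim in the reference and counted as detected through Triple alone. With both signals required to be well above background, 5 were higher, beside 4.48% of all genes, and 2 lower, beside 7.11%.

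For CpG over the reference, 3 transporters (9.68%) were more than 2-fold higher, Slc6a12, Slc7a5, and Slc7a7, beside 4.92% of all detected genes. Another 2 (6.45%), Slc43a3 and Slc6a19, were more than 2-fold lower, beside 5.68%. The reference array was shared by these comparisons, and its error is part of each. In Triple over CpG, 4 transporters (12.9%) were more than 2-fold higher, Slc1a2, Slc1a4, Slc6a19, and Slc7a11, beside 7.29% of all detected genes. Another 2 (6.45%), Slc1a5 and Slc7a4, were more than 2-fold lower, beside 8.13%. Of those higher, Slc1a2, Slc6a19, and Slc7a11 were dim in CpG, and Slc1a2 and Slc7a11 counted as detected through Triple alone. With both signals required to be well above background, 1 was higher (Slc1a4), beside 5.38% of all genes.

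The median log2 fold of the 31 transporters was 0.33 for Triple over the reference, where it was −0.03 over all detected genes. It was 0.10 against −0.01 for CpG over the reference and −0.05 against −0.04 for Triple over CpG. The 25 transporters detected on every array had medians of 0.28, 0.13, and −0.10 in the same order. In size, disregarding direction, the median log2 fold was 0.61 for the transporters and 0.33 for all genes in Triple over the reference, and 0.29 and 0.28 in CpG over the reference.

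**Figure D2:**
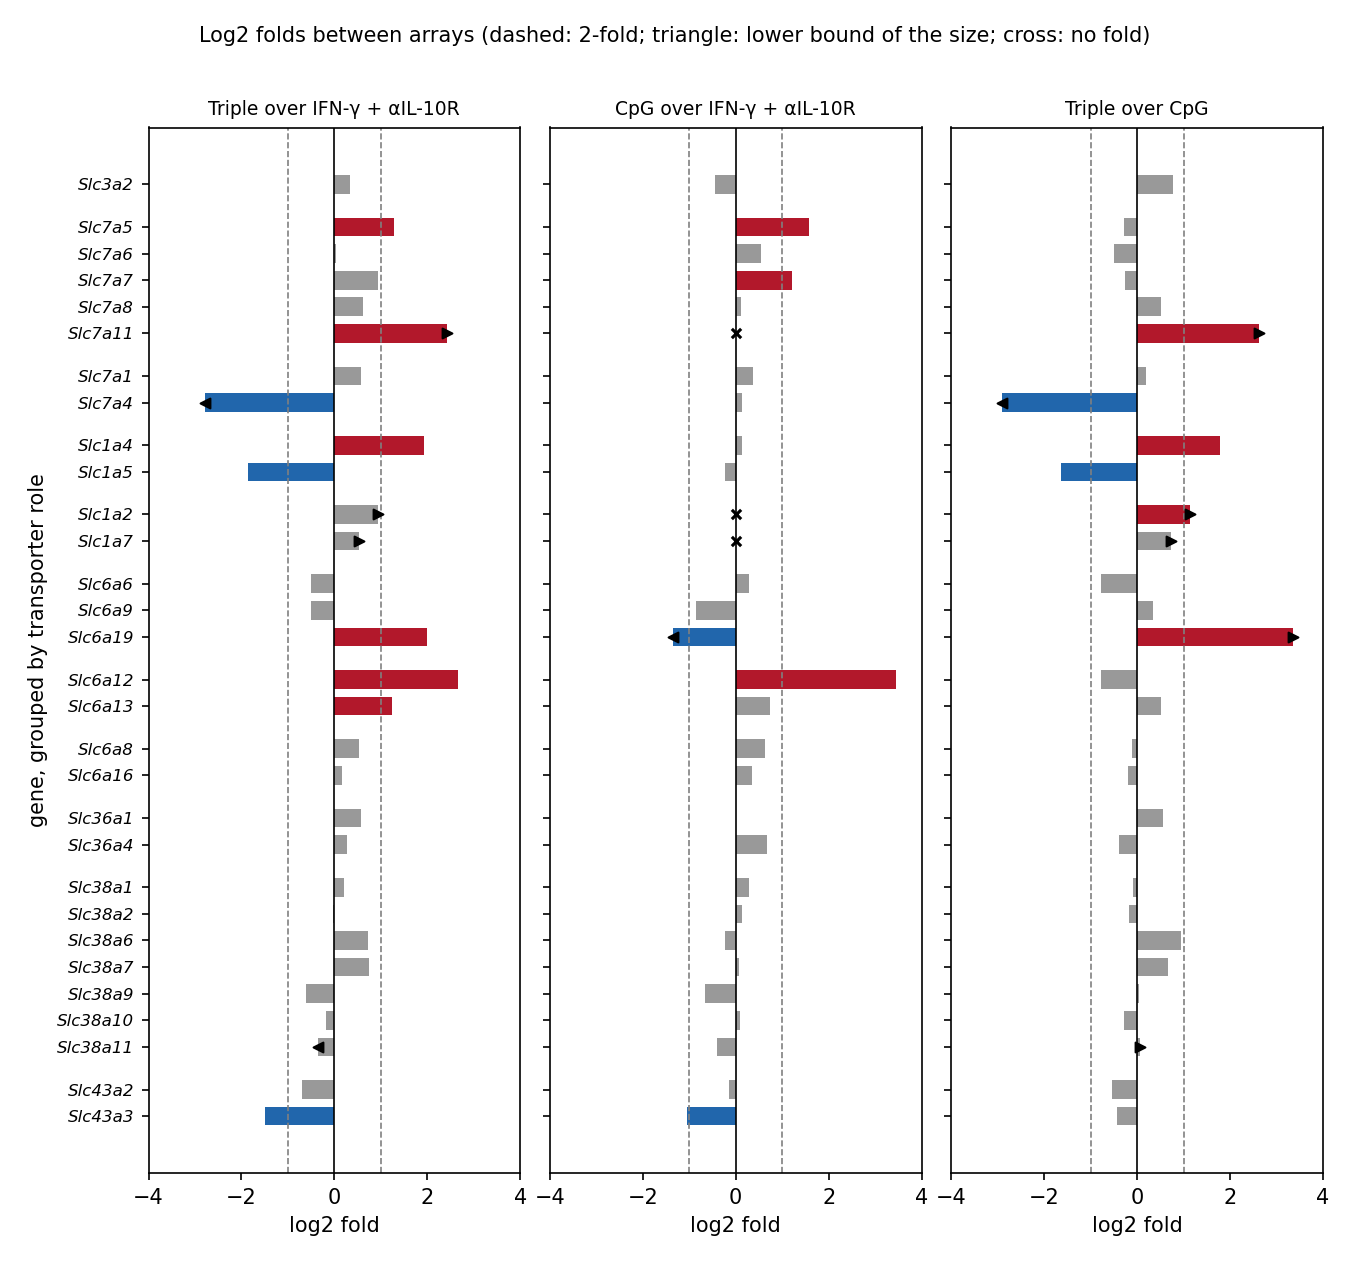
Log2 fold of the same 30 detected transporters in the 3 comparisons, as bars in red where more than 2-fold higher, in blue where more than 2-fold lower, and grey otherwise. Triangles mark folds against a dim signal, which are lower bounds under the processing used, and crosses mark pairs of dim signals. Of the 31 detected genes, 11 (35.5%) pass 2-fold in at least 1 comparison, beside 23.4% of all detected genes.

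Spots of the same probe within 1 array gave the technical error of a log2 fold between single spots, an SD of 0.11, and of 0.23 for signals under 200. This error leaves out differences between cultures and between arrays, among them the choice of scaling. Across scalings, the median log2 fold of all genes detected on every array was −0.17 to 0.07 in Triple over the reference. Of 90 log2 folds of the transporters, 12 lay within 2 technical SD of the 2-fold threshold, with the larger SD used where either signal was under 200, and 4 of these had passed it. Just inside were Slc43a3 (log2 fold −1.06), Slc6a19 (−1.36), and Slc7a7 (1.21) in CpG over the reference and Slc1a2 (1.13) in Triple over CpG. Just outside were Slc38a6 (0.95) in Triple over CpG, Slc7a7 (0.94) and Slc1a2 (0.94) in Triple over the reference, and Slc6a9 (−0.85) in CpG over the reference. The others, Slc1a7, Slc3a2, Slc6a12, and Slc6a6 in Triple over CpG, had log2 folds of 0.73, 0.77, −0.78, and −0.79.

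The neutral amino acid exchangers of the SLC1 family, Slc1a4 and Slc1a5, differed in opposite directions. Slc1a4 (ASCT1) carries alanine, serine, cysteine, and threonine. Its signal was 6387 in CpG, 5731 in IFN-γ + αIL-10R, and 21249 in Triple. The gene was thus close to equal with either stimulus and stood apart only with the combination, by 3.79-fold over the reference and 3.46-fold over CpG. These folds correspond to log2 values of 1.92 and 1.79, and CpG over the reference gave 0.13. Its probe lies at chr11:20202615-20202674 on the array's annotation (mm9).

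Slc1a5 (ASCT2), a main carrier of glutamine into dividing and activated cells, had signals of 1348 in CpG, 1551 in IFN-γ + αIL-10R, and 419 in Triple. It was low in Triple only, with log2 folds of −1.86 against the reference and −1.63 against CpG. A second probe of Slc1a5, with signals of 420, 512, and 142, gave −1.82 and −1.51. The 2 probes lie at chr7:17383359-17383418 and chr7:17383027-17383086 (mm9), and their log2 folds differed by at most 0.12 in the 3 comparisons.

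The promoter of Slc1a4 is shown with those of Slc7a11 and Slc6a19, the other transporters more than 2-fold higher in Triple than on both other arrays, and of Slc7a7, which shares a motif with 2 of them. ATF4, the transcription factor of amino acid deprivation, binds elements with the core TGATGNAA together with C/EBP proteins. This core, searched on both strands, is in capitals. The sequences are RefSeq promoters of GRCm38.p6, from 250 bases before to 50 bases after a transcription start, each on the minus strand and written in the direction of the gene. They span chr11:20332664-20332963, chr3:50443564-50443863, chr14:54417895-54418194, and chr13:73692587-73692886 in the order printed.
Slc1a4: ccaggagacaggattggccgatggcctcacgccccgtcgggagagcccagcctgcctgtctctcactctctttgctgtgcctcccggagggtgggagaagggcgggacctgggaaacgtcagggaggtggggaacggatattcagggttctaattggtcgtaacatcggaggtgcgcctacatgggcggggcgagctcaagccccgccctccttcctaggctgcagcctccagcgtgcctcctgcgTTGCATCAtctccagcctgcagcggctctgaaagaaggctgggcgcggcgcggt
Slc7a11: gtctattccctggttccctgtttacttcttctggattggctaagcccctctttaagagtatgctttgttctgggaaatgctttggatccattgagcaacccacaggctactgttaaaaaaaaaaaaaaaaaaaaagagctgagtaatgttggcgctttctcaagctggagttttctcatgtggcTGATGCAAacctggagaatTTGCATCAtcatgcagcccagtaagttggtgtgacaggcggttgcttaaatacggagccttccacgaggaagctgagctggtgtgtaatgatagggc
Slc7a7: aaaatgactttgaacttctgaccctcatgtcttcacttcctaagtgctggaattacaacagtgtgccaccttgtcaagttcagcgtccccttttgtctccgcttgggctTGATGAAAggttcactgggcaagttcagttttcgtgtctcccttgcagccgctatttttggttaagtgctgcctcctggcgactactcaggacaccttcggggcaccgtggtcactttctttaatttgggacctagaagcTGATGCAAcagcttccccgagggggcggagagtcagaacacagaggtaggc
Slc6a19: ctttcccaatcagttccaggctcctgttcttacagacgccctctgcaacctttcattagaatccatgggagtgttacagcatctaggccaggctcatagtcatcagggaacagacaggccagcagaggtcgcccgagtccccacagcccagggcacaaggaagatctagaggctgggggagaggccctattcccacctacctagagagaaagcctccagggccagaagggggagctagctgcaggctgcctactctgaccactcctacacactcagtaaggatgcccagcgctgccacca

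In Slc7a11 the core stood once on each strand, beginning 66 and 47 bases before the start, and in Slc1a4 it began 4 bases before it. The Slc7a7 window held it at 141 bases and at 1 base before the start, and the Slc6a19 window did not hold these letters. No copy of the core overlapped a match of another motif searched in these windows. A promoter was listed for 23 of the 31 detected transporters, and 3 of the 23 (13.0%) held the core in any of their windows, beside 4.51% of all 27025 genes with a listed promoter. The core of the κB element, GGG and CC separated by any 5 bases, was found in 17 of the 23 (73.9%), beside 53.5% of all genes. The letters TGACNNNGC, a core of the antioxidant response element bound by NRF2, were found in 7 (30.4%), beside 14.0%. A match is a description of letters and not a bound site, and genes with several listed starts had more windows in which to match: the 23 transporters had 38 windows, of which 4 held the ATF4 core, beside 3.97% of all 32851 windows. Among the 4 were overlapping windows of Slc7a7 that shared 1 copy of the core. The other listed windows of Slc7a7 did not hold it. By window, the κB core was found in 22 of the 38, beside 50.8% of all windows. The core TGACNNNGC was found in 9 of the 38, beside 12.4%. No promoter was matched for Slc1a5, Slc6a6, Slc6a8, Slc7a4, Slc7a5, Slc38a1, and Slc43a3.

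Among the heteromeric transporters, which pair a heavy with a light chain, 3 of the 5 detected light chains (Slc7a5, Slc7a7, and Slc7a11) passed 2-fold in a comparison, and their common heavy chain did not. Over all detected genes, 23.4% passed it in at least 1 comparison. Slc3a2 (CD98, 4F2hc) is the heavy chain needed to bring its partners to the cell surface. It had signals of 42929 in CpG, 57333 in IFN-γ + αIL-10R, and 70598 in Triple, and no comparison reached 2-fold. Slc7a11 (xCT), the light chain that takes up cystine in exchange for glutamate and so supplies cysteine for glutathione, was detected in Triple only. Its signals were 5.43 (dim) in CpG, 5.89 (dim) in IFN-γ + αIL-10R, and 140 in Triple.

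With the processing used, Slc7a11 was thus at least 5.37-fold higher in Triple than in the reference and at least 6.13-fold higher than in CpG. It was not well above background on either of those arrays. Other settings gave log2 folds as low as 1.24 and 1.32 in these comparisons. The probe (chr3:50169700-50169759, mm9) has 1 spot, in row 16 of the 384 rows of the array. Among genes with single spots, those in the first 48 rows were more often more than 2-fold higher, 9.08% against 6.58% elsewhere in Triple over the reference and 9.91% against 7.67% in Triple over CpG. They were also more often more than 2-fold lower, 12.4% against 9.35% and 10.7% against 8.38% in the same order. The 6 detected transporters with probes in these rows included Slc7a11. The part of the position in the Slc7a11 value was not tested.

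Slc7a5 (LAT1), which exchanges glutamine for leucine and other large neutral amino acids, was low with IFN-γ + αIL-10R and higher in both conditions that contained CpG. Its signals were 670 in CpG, 220 in IFN-γ + αIL-10R, and 528 in Triple, with log2 folds over the reference of 1.58 in CpG and 1.29 in Triple. Triple and CpG differed by a log2 fold of −0.29. Slc7a7 (y+LAT1), which exports arginine and lysine in exchange for neutral amino acids, had the same order of arrays, with signals of 15481 in CpG, 6576 in IFN-γ + αIL-10R, and 12354 in Triple. It passed 2-fold in CpG (2.31-fold) and not in Triple (1.92-fold).

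Slc7a8 (LAT2), a second carrier of neutral amino acids, had 10 spots on each array, of which 9, 10, and 10 were kept. The spots gave signals of 8788, 7988, and 12041, with an SD on the log2 scale between 0.03 and 0.04 within an array, and the log2 fold of Triple was 0.62 over the reference and 0.51 over CpG. These differences were well above the error between spots and under 2-fold. Slc7a6 (y+LAT2), the relative of Slc7a7, had signals of 402, 272, and 273 and was within 2-fold in every comparison. The genes Slc7a7 and Slc7a8 are neighbors on chromosome 14, with probes 352 kb apart.

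The cationic carriers Slc7a1 and Slc7a4 also behaved differently from each other. Slc7a1 (CAT1), which takes up arginine, lysine, and ornithine, had signals of 6898 in CpG, 5237 in IFN-γ + αIL-10R, and 7598 in Triple, a log2 fold of 0.57 for Triple over the reference. Slc7a4, related to these carriers in sequence and without a settled substrate, had signals of 204, 184, and 10.7 (dim). With the processing used, it was at least 6.84-fold lower in Triple than in the reference and at least 7.47-fold lower than in CpG. Other settings gave log2 folds as small in size as −1.31 and −1.35 in these comparisons. A second probe of Slc7a4 was dim on all arrays and gave no fold, so that the difference rests on 1 probe (chr16:17573049-17573108, mm9). Slc7a3 and Slc7a14, the other members of this group, were dim throughout.

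The carriers of GABA, betaine, and taurine belong to the SLC6 family, and 2 of them were lowest with IFN-γ + αIL-10R. Slc6a12 (BGT1), a carrier of betaine and GABA that cells use to balance osmotic stress, had signals of 1377 in CpG, 124 in IFN-γ + αIL-10R, and 772 in Triple. Among transporters higher in CpG than in the reference this was the largest fold, 10.9-fold (log2 fold 3.45), and the fold of Triple was 6.35 (log2 fold 2.67). Triple stood below CpG by a log2 fold of −0.78, inside the threshold. Slc6a13 (GAT2), a GABA and taurine carrier, had signals of 1042, 615, and 1424 in the same order, and its 2.37-fold difference between Triple and the reference passed the threshold while the 1.67-fold difference of CpG did not. The probes of these genes are 27.9 kb apart on chromosome 6 (chr6:121315541-121315600 and chr6:121287597-121287656, mm9).

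Slc6a11, another GABA carrier, was dim on all arrays. Slc6a6, the main taurine carrier, had signals of 27071 in CpG, 21813 in IFN-γ + αIL-10R, and 15092 in Triple, and was lowest in Triple by log2 folds of −0.50 and −0.79. Slc6a9 (GlyT1), a glycine carrier, had signals of 282, 498, and 345 and was highest with IFN-γ + αIL-10R, within 2-fold in every comparison.

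Slc6a19 (B0AT1), a neutral amino acid carrier known from the brush border of gut and kidney, was ordered from dim in CpG to highest in Triple. Its signals were 4.73 (dim) in CpG, 59.9 in IFN-γ + αIL-10R, and 235 in Triple. It was 4.00-fold higher in Triple than in the reference. With the processing used, it was at least 10.3-fold higher in Triple than in CpG and at least 2.56-fold lower in CpG than in the reference. Other settings gave log2 folds as low as 1.99 in Triple over CpG. Slc6a19 was thus the 1 transporter more than 2-fold apart in all 3 comparisons, where the call in CpG over the reference was within 2 technical SD of the threshold and was lost under another background correction (normexp, log2 fold −0.68). It rests on 1 probe (chr13:73818718-73818777, mm9), and the probe of the neighboring gene Slc6a18, 15.6 kb away, was dim on all arrays.

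Other SLC6 members carry other substrates. Slc6a8, the creatine carrier, had signals of 7279, 4608, and 6525, lowest with IFN-γ + αIL-10R and within 2-fold. Slc6a16, an orphan member, had signals of 78.2, 60, and 65.5.

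Of the glutamate carriers, Slc1a2 (GLT-1) and Slc1a7 were detected in Triple only and near the limit. Slc1a2 had signals of 11.9 (dim) in CpG, 6.39 (dim) in IFN-γ + αIL-10R, and 50.2 in Triple, at least 2.19-fold higher than in CpG and at least 1.92-fold higher than in the reference. Its other 2 probes were dim on all arrays, and the call in Triple over CpG was lost when probes were averaged. Under normexp its log2 folds in Triple were 0.50 over CpG and 0.41 over the reference. Slc1a7 (EAAT5), known from the retina, had signals of 22.9 (dim), 23.8 (dim), and 37.8. With the processing used, these gave bounds of 1.65-fold over CpG and 1.45-fold over the reference. Under normexp the log2 folds were 0.33 and 0.20.

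None of the 7 detected sodium-coupled SLC38 carriers passed 2-fold in any comparison on the probe used, and 76.6% of all detected genes did not either. Slc38a1 and Slc38a2 (SNAT1 and SNAT2), glutamine and alanine carriers of the plasma membrane, had signals of 9414, 7543, and 8553 and of 6404, 5758, and 5497. Both were close to equal over the 3 arrays, with log2 folds between −0.16 and 0.29. Slc38a2 is a known target of the response to amino acid deprivation, and its log2 fold was −0.04 in Triple over the reference. Slc38a6 (2118, 2432, and 3942) and Slc38a7 (1988, 1856, and 3047), the latter an exporter of glutamine from lysosomes, were each highest in Triple, with log2 folds over the reference of 0.73 and 0.75.

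Slc38a9, the lysosomal arginine sensor of mTORC1, had signals of 782 in CpG, 1213 in IFN-γ + αIL-10R, and 776 in Triple on the probe used. Its 3 probes disagreed: for Triple over the reference they gave log2 folds between −1.45 and −0.51, so that the gene passed 2-fold by 1 probe (signals 135, 202, and 72.3) and not by the others. Slc38a10 had signals of 513, 472, and 408, and Slc38a11 was near the limit of detection (26.3, 34.3, and 22.8, the last dim).

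Proton-coupled carriers of the lysosome and the SLC43 carriers showed modest differences apart from Slc43a3. Slc36a1 (PAT1) had signals of 572, 556, and 810 and a log2 fold of 0.57 for Triple over the reference. Slc36a4 had signals of 691, 428, and 509. Slc43a2 (LAT4), which carries branched-chain amino acids and phenylalanine, had signals of 9035 in CpG, 9856 in IFN-γ + αIL-10R, and 5992 in Triple, within 2-fold.

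Slc43a3, grouped with the amino acid carriers by sequence and known to carry purine nucleobases, was highest with IFN-γ + αIL-10R. Its signals were 561 in CpG, 1145 in IFN-γ + αIL-10R, and 397 in Triple. The log2 fold against the reference was −1.50 in Triple and −1.06 in CpG, the latter close to the threshold.

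For 6 transporters, several probes were detected on every array and could be compared. The log2 folds of 1 gene differed between its probes by 0.03 (Slc38a6) to 0.94 (Slc38a9) in Triple over the reference and by 0.07 (Slc36a4) to 0.89 (Slc38a9) in Triple over CpG. Apart from Slc38a9, the widest disagreement was 0.45, for Slc38a6 in Triple over CpG.

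**Figure D3:**
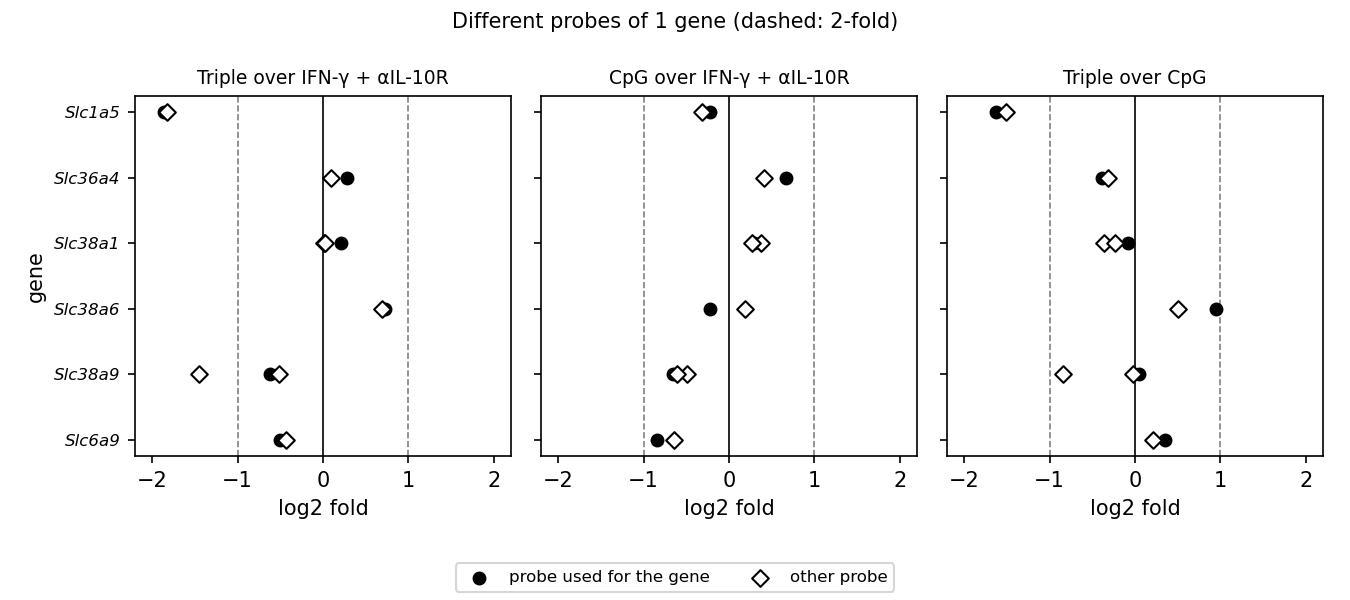
Log2 folds of the 6 transporters with several probes detected on every array, a filled circle for the probe used and open diamonds for the others; dashed lines mark 2-fold. The probes of Slc1a5 coincide at −1.86 and −1.82 in Triple over the reference, and 1 probe of Slc38a9 stands apart.

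Genes that work with these carriers were counted in lists of pathway members. Of 24 amino acid carriers of other SLC families, 17 were detected, and for Triple over the reference 3 were more than 2-fold higher and 0 lower, beside 6.31% and 8.95% of all detected genes. Among these was Slc15a3, a lysosomal carrier of histidine and small peptides, with signals of 25360 in CpG, 17292 in IFN-γ + αIL-10R, and 78524 in Triple (log2 fold 2.21 over the reference). The other 2, Slc17a8 and Slc32a1, were dim with IFN-γ + αIL-10R and are named after their values were seen. Slc25a12, the mitochondrial aspartate and glutamate carrier, was low in CpG (4883, against 11015 and 14633). Slc16a10, an aromatic amino acid carrier, had log2 folds of 0.92, 0.85, and 0.07 in Triple over the reference, CpG over the reference, and Triple over CpG, and Ctns, the lysosomal cystine exporter, had −0.70, −0.46, and −0.24.

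Enzymes of amino acid metabolism held members with large differences. Of 26 detected, 6 were more than 2-fold higher and 4 lower in Triple than in the reference, beside 6.31% and 8.95% of all detected genes. In Triple over CpG 7 were higher and 3 lower, beside 7.29% and 8.13%. Among those higher, Arg2, Ido1, and Ido2 were dim in the reference, and Arg2, Ido1, and Kynu were dim in CpG. These genes are named after their values were seen. Nos2, which makes nitric oxide from arginine, had signals of 155 in CpG, 448 in IFN-γ + αIL-10R, and 72449 in Triple. Ass1, which regenerates arginine from citrulline, was close to equal in CpG (6040) and IFN-γ + αIL-10R (5840) and was 25284 in Triple, a log2 fold of 2.15 over the reference. On the lower side, Kmo, an enzyme of tryptophan breakdown, had a log2 fold of −1.98 and Prodh, which begins proline breakdown, one of −1.73 in Triple over the reference.

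Targets of ATF4 differed in both directions. Of 24 detected, 5 were more than 2-fold higher and 2 lower in Triple than in the reference, beside 6.31% and 8.95% of all detected genes, so that the lower count was near that of all genes. The median log2 fold was 0.23, and 4 were higher and 1 lower in Triple than in CpG, beside 7.29% and 8.13%. Of the serine synthesis enzymes, Psat1 had signals of 3171, 5823, and 12725 and was highest in Triple. Phgdh had 2084, 3052, and 1057 and Psph, named after its values were seen, 1743, 2622, and 1180, and both were lowest there. Ppp1r15a, which restores translation after stress, had a log2 fold of 1.30 in Triple over the reference, and Herpud1, an endoplasmic reticulum stress gene, one of 1.38 and of 2.32 in CpG over the reference.

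Of 17 detected genes of glutathione synthesis and the NRF2 response, 4 were more than 2-fold higher and 0 lower in Triple than in the reference, beside 6.31% and 8.95% of all detected genes. The same counts held for CpG over the reference, beside 4.92% and 5.68%. In both comparisons the 4 included Gclm, Gsr, and Hmox1, with Prdx1 in Triple and Ggt5, named after its values were seen, in CpG. Gsr, which reduces oxidized glutathione, had signals of 16832 in CpG, 4904 in IFN-γ + αIL-10R, and 19655 in Triple. Hmox1, heme oxygenase, had 59939, 17161, and 57912, and Gclm, a subunit of the enzyme that begins glutathione synthesis, had 1177, 447, and 1116. These 3 genes were thus close to equal in CpG and Triple. The cystine carrier Slc7a11 was detected in Triple only, by a single spot, and its relation to these genes was not tested. Prdx1, a peroxidase, passed 2-fold in Triple (log2 fold 1.07) and not in CpG (0.18).

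Of 27 detected genes of amino acid sensing by mTORC1, 0 were more than 2-fold higher and 2 lower in Triple than in the reference, beside 6.31% and 8.95% of all detected genes, and the comparison had no replicate to test. In CpG over the reference 1 was higher and 1 lower, beside 4.92% and 5.68%. The 2 lower in Triple were Sesn1 (signals 12080, 5117, and 2456) and Sesn3 (75.2, 573, and 159), of the sestrin family that restrains mTORC1. Their signals in CpG lay on opposite sides of the reference, with log2 folds of 1.21 and −2.95. Tfeb, a factor of lysosome synthesis, had a log2 fold of −0.81 and Depdc5, of the complex that inhibits mTORC1, one of 0.60 in Triple over the reference.

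**Figure D4:**
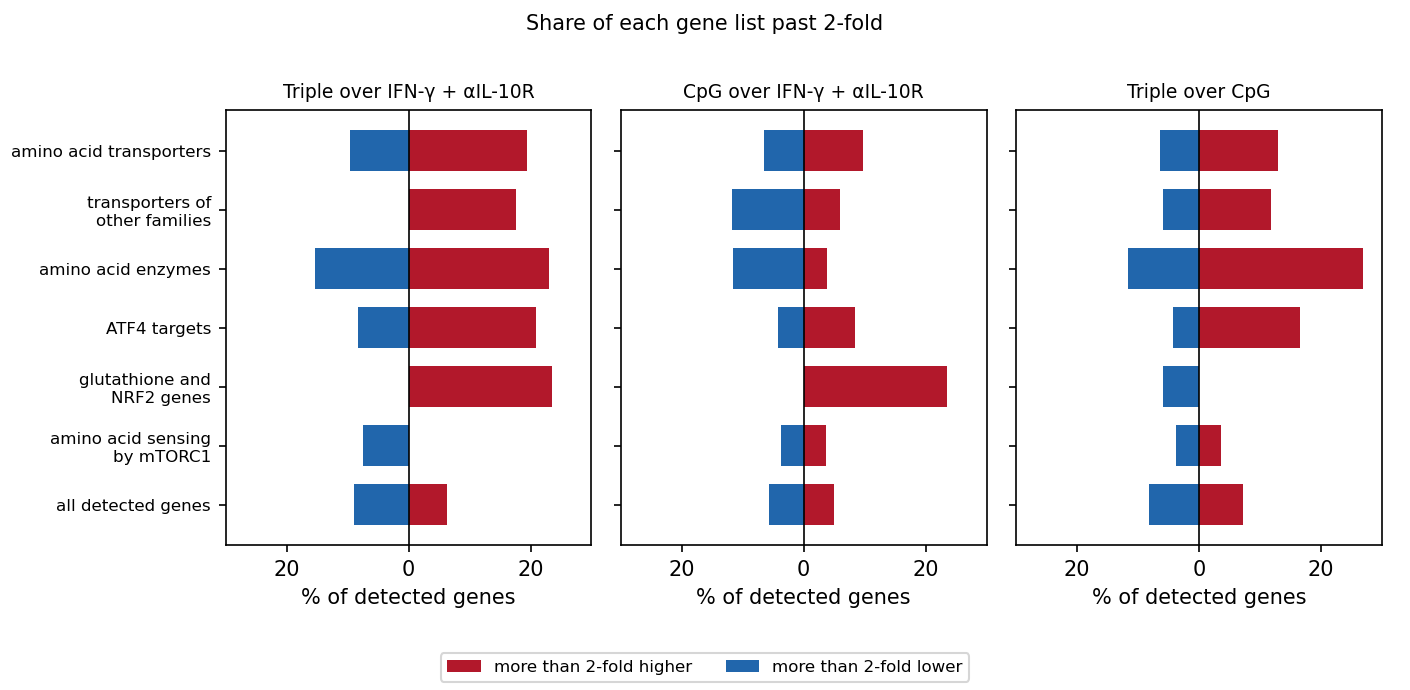
Share of the detected genes of each list that were more than 2-fold higher (red, to the right) or lower (blue, to the left) in the 3 comparisons, in percent, with all detected genes in the lowest bar. The transporters reach 19.4% higher in Triple over the reference, beside 6.31% of all detected genes.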

How the data were processed

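RNA of the BMDMs was hybridized in 1 colour to Agilent mouse arrays. Each array came as a file of the scanner software, Agilent Feature Extraction 10.10.1.1. Its processed signal, as deposited, is a linear intensity with the background already subtracted and no scaling between arrays. A second table that the authors deposited, in log2 units, equaled the scanner values in log2 shifted by an array constant (signals of 368, 373, and 338) within 0.01 for 99.9% of the probes of each array, so that its scale and direction were settled, and which was used as an alternative. Control spots and spots marked as outliers (3.04% to 3.78%) were left out, and spots of 1 probe were averaged as log2 values. As 44.2% of the probes, under 50%, were well above background, the 75th percentile used to shift the log2 values of an array (4550, 4473, and 4378) was taken over the 21229 probes that passed on all 3 arrays. A gene was its probe with the highest mean. A dim signal was raised to the lowest signal well above background on its array (23.8 to 26.7). A fold against a dim signal is thus a lower bound under this processing only, and no fold is given between dim signals. A gene was called if it was more than 2-fold apart and well above background on the brighter array. Medians over the detected transporters include pairs of dim signals at these limits. Precision was limited by the single array per condition and, for dim genes, by the background.

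The named genes were the 59 transporters, apart from a detected one that is not reported here but stays in the counts, and, of each pathway list, at most the 4 members with the largest log2 fold of Triple over IFN-γ + αIL-10R among those detected on every array. The transporters and the lists were chosen with earlier results of these data known. Probe positions are those of the array design (mm9), and the symbols of the 57 measured transporters were current in the RefSeq table. The alternatives were other scalings, normexp (offset 50, limma 3.58.1, R 4.3.3), other filters on dim probes, probe averages, outlier spots kept, and thresholds of 1.5-fold and 3-fold. The code was tested on simulated arrays. Calculations used Python 3.11.15, numpy 2.4.6, and pandas 2.3.3.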

Additional observations from a re-analysis of the deposited data

How the results depend on the processing

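No paired analysis was possible because no condition had a second array. The counts of transporters moved most with the threshold and with the treatment of dim probes. At 1.5-fold, 11 were higher and 5 lower in Triple than in the reference, 6 higher and 4 lower in CpG than in the reference, and 8 higher and 4 lower in Triple than in CpG, beside 12.8%, 16.7%, 10.9%, 12.5%, 13.9%, and 16% of all detected genes in that order. At 3-fold, CpG over the reference held 1 higher and 0 lower (all genes 2.24% and 2.74%). Triple over the reference held 4 higher and 2 lower (all genes 3.3% and 4.38%). With no filter and no lower limit, all 57 measured transporters were counted, also those dim on every array. The counts were 10 higher in Triple over the reference, 6 higher in CpG over the reference, and 7 higher and 4 lower in Triple over CpG. All measured genes gave 7.51%, 7.05%, 8.24%, and 8.99% in that order. These counts include pairs of dim signals, such as Slc36a3 in Triple over the reference. With both signals required to be well above background, 1 was higher (Slc1a4) and 1 lower (Slc1a5) in Triple over CpG, and 1 was lower in CpG over the reference (all genes 5.38%, 6.06%, and 4.29%). Under normexp, 0 were lower in CpG over the reference (all genes 3.75%), and the median log2 fold in Triple over CpG was 0.062. Scaling also moved counts. With the authors' values, the 75th percentile over all probes, or the median over probes detected on all arrays, 8 were higher in Triple over the reference. All genes gave 7.46%, 7.5%, and 7.41%. The same settings gave 5 higher in Triple over CpG (all genes 7.81%, 7.81%, and 7.92%). Spike-in scaling gave a median of 0.20 in Triple over the reference, with the median of all genes detected on every array at −0.17 (−0.04 as reported). Of 20 log2 folds past the threshold, 17 stayed past it in all 10 alternatives that gave a value for each gene. The exceptions were Slc1a2 in Triple over CpG (0.50 under normexp and 0.51 with probes averaged) and, under normexp, Slc43a3 (−0.97) and Slc6a19 (−0.68) in CpG over the reference. No direction was reversed among these 20. Folds against dim signals varied most, with 1.24 to 4.6 for Slc7a11 and −4.07 to −1.31 for Slc7a4 in Triple over the reference.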
